A study of Procotyla fluviatilis with 12 samples.

Results

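The freshwater planarian *Procotyla fluviatilis* regenerates from some body regions and not from others, and 96 contigs of its transcriptome had a level that was high in Reg+ amputated as well as Reg- uncut tissue, and low in Reg- amputated as well as Reg+ uncut tissue. They were chosen from 149594 contigs by their level in CPM, the reads of a contig per 1000000 reads of its library. A contig was taken if its lowest CPM over the 6 Reg+ amputated and Reg- uncut libraries was at least 3 and at least 4 times its highest CPM over the 6 Reg- amputated and Reg+ uncut libraries. Every library entered this choice, so the difference between the 2 sets of groups is a description of what was chosen and carries no test.

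Planarians rebuild lost parts from a population of adult stem cells called neoblasts, which divide near a wound and supply the new tissue. Head or tail identity at a wound is set largely by Wnt signalling through beta-catenin, which is low where a head forms. *P. fluviatilis* is known as a species that forms a new head from anterior wounds and fails to do so from posterior wounds, and it has been used to ask what the failing tissue lacks. Its body also holds a branched gut, a muscular pharynx near the middle, and reproductive organs in mature animals, so that tissue excised at different levels differs in organs as well as in regenerative ability.

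Each of the 4 groups had 3 RNA-seq libraries, each made from total RNA of a pool of 3 adult, field-collected worms. Reg+ amputated tissue came from worms cut anterior to the pharynx, in the region labelled proficient in regeneration, and was excised just posterior to the wound after 24 hours. Reg- uncut tissue was the piece at the matching posterior level, labelled deficient, of worms that had not been cut. Reg- amputated tissue came from worms cut posterior to the pharynx and was excised after 24 hours, and Reg+ uncut tissue was the anterior counterpart from worms left intact. Nothing in the labels says that pools came from separate collections or days, so the p-values below measure only the spread between these pools. That spread was taken over the libraries of all 4 groups together, also where 2 groups are compared. The files give contigs by identifier, without gene names, so no contig is given a name, a position or a role, no marker of a tissue could be looked up, and several contigs may belong to 1 gene.

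The split that defines the 96 contigs runs across both labels of the design, since each side of it holds 1 amputated and 1 uncut group and 1 Reg+ and 1 Reg- group. The same thresholds applied along the labels found 0 contigs higher in Reg+, 0 higher in Reg-, 0 higher in amputated and 0 higher in uncut tissue. Turned round, they found 276 contigs with Reg- amputated and Reg+ uncut as the high groups. Over the 27010 contigs with at least 3 CPM in at least 6 libraries, libraries had a mean Spearman correlation of 0.947 between Reg+ amputated and Reg- uncut and of 0.922 between Reg- amputated and Reg+ uncut. It was 0.840 between Reg+ amputated and Reg+ uncut and 0.866 between Reg- amputated and Reg- uncut. The other pairs of groups gave 0.849 (Reg+ amputated with Reg- amputated) and 0.868 (Reg- uncut with Reg+ uncut). Within groups the mean was 0.963 in Reg+ amputated, 0.961 in Reg- uncut, 0.862 in Reg- amputated and 0.945 in Reg+ uncut libraries. Reg- amputated libraries were thus no less like Reg- uncut libraries than like each other. A biological pattern that crosses the labels and an exchange of labels between whole groups cannot be told apart in this design, so every group name below is that of the labels. The Reg- amputated libraries were the least alike within a group, with correlations of 0.768 to 0.930, and their replicates 1 and 3 were the most distant by counts of the pairs within a group. Library totals were 22038256 to 31266924 reads.

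The 96 contigs together took 0.714% ± 0.183 of all reads in Reg+ amputated and 0.813% ± 0.142 in Reg- uncut tissue, against 0.0452% ± 0.00764 in Reg- amputated and 0.0421% ± 0.00773 in Reg+ uncut tissue (SD, n = 3 each). By library the summed level was 6240, 9244 and 5934 CPM in Reg+ amputated replicates 1, 2 and 3. It was 7050, 9738 and 7587 CPM in Reg- uncut replicates 1, 3 and 4. The Reg- amputated libraries held 409.8, 540.4 and 406 CPM and the Reg+ uncut libraries 398, 358 and 507 CPM. Between the high and the low libraries the ratio of mean sums was 17.5, and 30.9 when the most abundant contig, contig147544, was left out. In bulk tissue, fewer cells of a type and less RNA per cell cannot be told apart.

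**Figure D1:**
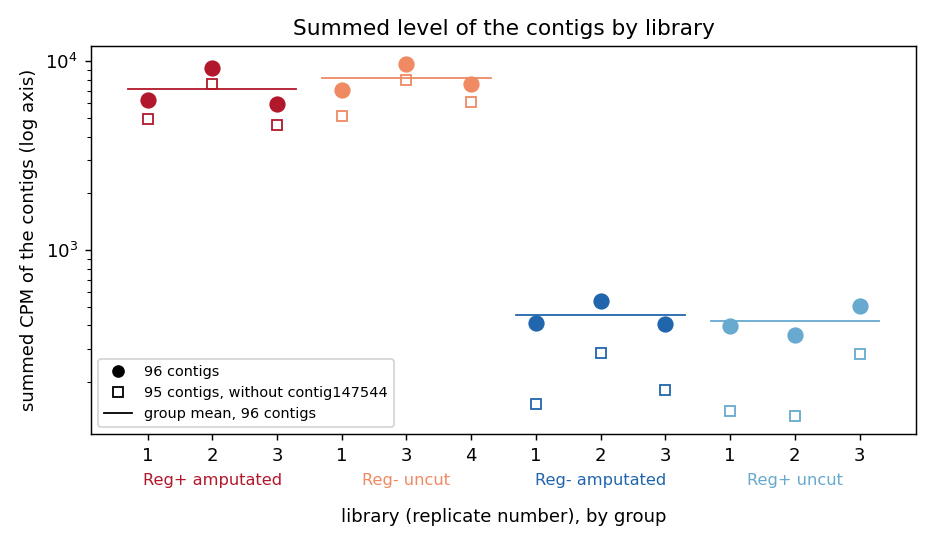
Summed CPM of the contigs (vertical log axis) in each library, by group and replicate number. Filled circles are all 96 contigs, open squares the 95 without contig147544, and lines the group means; the 6 Reg+ amputated and Reg- uncut libraries lie between 5934 and 9738 CPM and the other 6 between 358 and 540.4 CPM.

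Most of the contigs were of moderate abundance where they were high. Their mean over the 6 high libraries was at least 100 CPM in 20 contigs and at least 10 CPM in 79. The median level was 34.3 CPM in Reg+ amputated pools and 39.5 CPM in Reg- uncut pools, against 0.838 CPM in Reg- amputated pools and 0.887 CPM in Reg+ uncut pools. Per length, the median was 62.1 RPKM in the high libraries (RPKM is CPM divided by the contig's length in kilobases) and 1.36 RPKM in the low ones, and 40 contigs were under 1 RPKM there. A low library exceeded 3 CPM in 39 contigs and 10 CPM in 11.

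For a single contig the step was usually larger than the rule required. The lowest high library stood at least 8 times above the highest low library in 66 contigs, at least 20 times in 28, at least 50 times in 10 and at least 100 times in 4, with a median of 12.6. The mean over the high libraries was 6.52 to 537 times the mean over the low ones, with a median of 39.1. In the low groups 79 of the 96 contigs had at least 1 read in every library and 0 had none in all 6, although 1 read is far below 1 CPM at these totals. Of the 276 contigs with the pattern turned round, 170 had a read in every one of their low libraries and 1 had none in any, a difference that was not tested.

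The low groups were not equally low for every contig, and grades were set by limits chosen after the values had been seen. In 53 contigs the mean over the 6 low libraries was under 1 CPM. In 31 contigs it was 1 to under 5 CPM. In the other 12 it was at least 5 CPM.

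**Figure D2:**
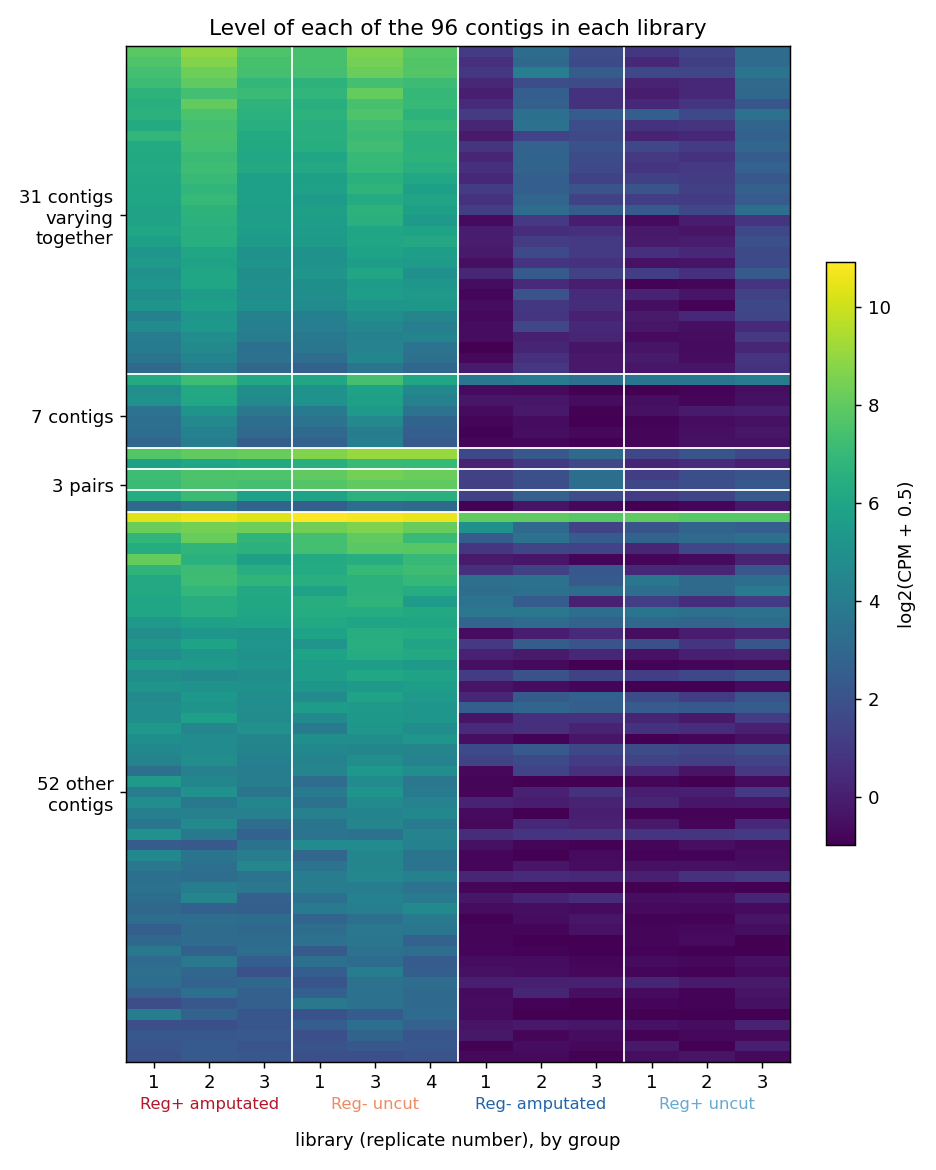
Level of each of the 96 contigs (rows) in each library (columns, by group and replicate number), as log2(CPM + 0.5). White lines part the groups and the sets of contigs whose levels varied together between libraries of a group, of 31, 7 and 3 times 2 contigs; the other 52 contigs are at the bottom.

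Contig147544 (725 nt) was the most abundant. Its level was 1278, 1636 and 1308 CPM in Reg+ amputated libraries and 1929, 1735 and 1511 CPM in Reg- uncut libraries. Reg- amputated libraries had 255.5, 254.5 and 224 CPM, and Reg+ uncut libraries 257, 226 and 224 CPM. The groups on each side overlapped, and the 6 low values stayed within a narrow band. Per length it reached a mean of 2160 RPKM in the high libraries, rank 23 of all contigs, and 331 RPKM in the low ones. It made up 20.5% of the summed level of the 96 contigs in the high libraries and 55.0% in the low ones. It was the only member above 100 CPM in a low library; the next highest, contig1029, reached 30.8 CPM.

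Contig6833 (1207 nt) followed, with 210, 259 and 278 CPM in Reg+ amputated libraries and 407, 540 and 537 CPM in Reg- uncut libraries. It had 2.46, 4.28 and 8.23 CPM in Reg- amputated libraries and 2.37, 3.72 and 2.36 CPM in Reg+ uncut libraries. All 3 Reg- uncut libraries exceeded all 3 Reg+ amputated ones, and among the low libraries Reg- amputated replicate 3 was highest. Contig16874 (805 nt) and contig21748 (995 nt) had the same order of groups. Contig16874 averaged 178 ± 26.5 CPM in Reg+ amputated libraries and 299 ± 44.7 CPM in Reg- uncut libraries, against 4.91 ± 3.93 CPM in Reg- amputated libraries and 2.89 ± 1.06 CPM in Reg+ uncut libraries (SD, n = 3 each). Contig21748 averaged 161 ± 20.4 and 242 ± 26.1 CPM in the same high groups, against 4.73 ± 3.95 and 3.28 ± 0.924 CPM in Reg- amputated and Reg+ uncut tissue.

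Contig1029 (515 nt) was even across the high libraries and uneven across the low ones. It stood at 303, 341 and 314 CPM in Reg+ amputated libraries and 325, 396 and 278 CPM in Reg- uncut libraries. Its 30.8 CPM in Reg- amputated replicate 1 was far above the 7.86 and 2.20 CPM of replicates 2 and 3 and the 3.73, 6.71 and 5.35 CPM of the Reg+ uncut libraries. Of the 8 most abundant contigs it was the only one with its highest low value in that library.

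Contig138882 (417 nt), contig20843 (240 nt) and contig6639 (1372 nt) complete the 8 most abundant, and they shared a pattern within groups. Contig138882 had 231, 490 and 196 CPM in Reg+ amputated libraries and 176, 382 and 224 CPM in Reg- uncut libraries. Its low values were 1.63, 8.71 and 2.98 CPM in Reg- amputated libraries and 1.42, 2.25 and 8.80 CPM in Reg+ uncut libraries. A single library stood out in each group. It was replicate 2 of both amputated groups and replicate 3 of both uncut groups. Contig20843 had the same 4 libraries highest, at 406, 340, 7.30 and 8.39 CPM. Contig6639 had them highest too, at 311, 289, 16.7 and 11.3 CPM.

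**Figure D3:**
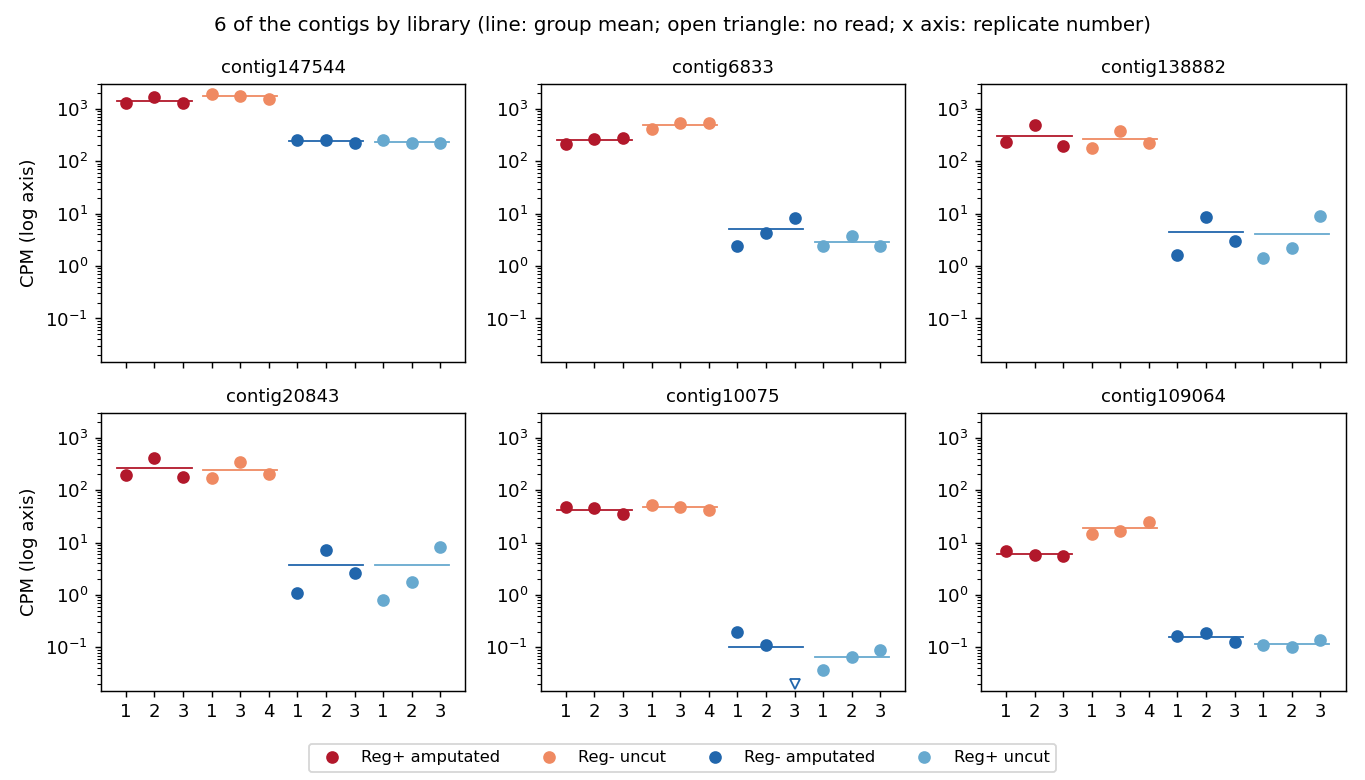
CPM (log axis) of 6 of the contigs in each library, with group means as lines and an open triangle where a library had no read. Contig147544 keeps about 224 to 257 CPM in its low groups, contig10075 falls to between 0 and 0.199 CPM, and contig6833 and contig109064 are higher in Reg- uncut than in Reg+ amputated libraries.

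The widest steps belonged to contigs of moderate level whose low libraries held a handful of reads. Contig10075 (470 nt) had 47.3, 44.6 and 35.2 CPM in Reg+ amputated libraries and 51.0, 48.5 and 41.3 CPM in Reg- uncut libraries, against 6, 3 and 0 reads in Reg- amputated and 1, 2 and 2 reads in Reg+ uncut libraries. The ratio of the lowest high to the highest low library was 177, with a 95% exact (Clopper-Pearson) interval of 80.9 to 483. That ratio was 162 for contig55113 (537 nt; interval 44.6 to 1346), 127 for contig10249 (329 nt; 49.3 to 467) and 127 for contig131703 (204 nt; 64.0 to 294). For contig11879 (638 nt) it was 84.1, from 50 to 154. It was 69.6 for contig2885 (345 nt; 18.9 to 580), 65.8 for contig109086 (442 nt; 22.3 to 321) and 65.0 for contig14455 (629 nt; 35.1 to 136). These intervals cover counting error only, they overlap, and the order of the 8 ratios is not resolved. Both the rule and the choice of these 8 contigs used this ratio. The intervals allow for neither choice and are no support for the difference. In contig55113 and contig2885 the highest low library held 2 reads.

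The 8 contigs with the widest steps differed in how even they were within the high groups. Contig131703 averaged 34.5 ± 0.949 CPM in Reg+ amputated libraries and 43.1 ± 4.85 CPM in Reg- uncut libraries (SD, n = 3 each). Contig55113 averaged 13.0 ± 2.39 and 14.0 ± 2.61 CPM in the same groups. Contig11879 had 273, 98.1 and 53.4 CPM in Reg+ amputated libraries and 78.6, 85.3 and 128 CPM in Reg- uncut libraries, so that its Reg+ amputated replicate 1 lay far above the rest. Contig109086 also had its highest value there, with 41.7, 21.5 and 15.6 CPM in Reg+ amputated libraries and 8.95, 26.6 and 12.8 CPM in Reg- uncut libraries. Contig10249 instead peaked in Reg+ amputated replicate 2, at 73.7 CPM, and Reg- uncut replicate 3, at 59.0 CPM.

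The longest members were contig3123 (4431 nt), contig3150 (4207 nt) and contig35847 (2372 nt). Contig3150 had 112, 141 and 85.8 CPM in Reg+ amputated libraries and 80.5, 127 and 147 CPM in Reg- uncut libraries, against 1.09, 2.01 and 4.31 CPM in Reg- amputated libraries and 0.767, 0.704 and 4.22 CPM in Reg+ uncut libraries. Contig3123 had 38.6, 60.1 and 36.9 CPM in Reg+ amputated libraries and 36.8, 90.1 and 60.8 CPM in Reg- uncut libraries, against 1.49, 5.17 and 3.66 CPM in Reg- amputated libraries and 3.25, 1.24 and 3.86 CPM in Reg+ uncut libraries. For contig3150 the mean fold of high over low libraries was 52.9, against 17.3 for contig3123 and 11.5 for contig35847. Per length these were lowly expressed members, with means of 27.4 RPKM for contig3150, 15.6 RPKM for contig35847 and 12.2 RPKM for contig3123 in the high libraries, against a median of 62.1 RPKM over the 96 contigs and a range of 4.57 to 2160 RPKM.

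The 2 contigs nearest each threshold on either side are close in that value by the way they were picked. Contig110683 and contig90899 entered with lowest high levels of 3.01 and 3.22 CPM, and contig21812 and contig35517 fell outside with 2.97 and 2.87 CPM. Contig13150 and contig12786 entered with ratios of 4.03 and 4.07, and contig31823 and contig36008 fell outside with 3.99 and 3.97. Requiring a ratio of only 2 would have taken in 198 contigs.

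The rule was also applied to 11 libraries at a time, and the contigs so found were then read in the library that had played no part. With a high library left out, 97 of 104 contigs (93.3%, Reg+ amputated replicate 3) to all of 96 and 97 (Reg- uncut replicates 3 and 4) were at least 4 times above the low libraries in it. With a low library left out, 96 of 107 contigs (89.7%, Reg- amputated replicate 2) to all of 96 (Reg- amputated replicate 1 and Reg+ uncut replicate 2) were at least 4 times below the high libraries in it. Every contig lay on its own side in the left-out library except 1 of 99, in Reg- amputated replicate 3. The 96 contigs met the rule in any 11 libraries by construction, so these counts describe the further contigs that 11 libraries took in and are no support for the pattern.

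Length and read uniqueness were not used by the rule. The 96 contigs had a median length of 501 nt (204 to 4431 nt), against 922 nt over the 27010 contigs with at least 3 CPM in 6 libraries and 348 nt over all contigs. Of the 96, 24 were under 300 nt and 23 were at least 1000 nt. In the median contig 99.9% of reads were uniquely assigned, against 99.7% over the 27010 contigs. Under 95% of reads were unique in 2 contigs, contig13509 (1070 nt) with 81.1% and contig145201 (572 nt) with 91.9%, so their counts are uncertain where reads also match a near copy. Both were singled out after their values had been seen.

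The 96 contigs varied widely within groups, in no test against other contigs. Their median coefficient of variation was 34.8% in Reg+ amputated and 27.9% in Reg- uncut tissue, against 11.5% and 10.1% over the 27010 contigs in those groups. In Reg- amputated and Reg+ uncut tissue it was 72.6% and 66.5%, where counting error weighs more, against 16.9% and 12.8% over the 27010 contigs. The variation ran in common. Reg+ amputated replicate 2 was the highest library of its group for 69 of the 96 contigs (71.9%), and of the 27010 contigs for 24.9%. Reg- uncut replicate 3 was highest for 73 (76.0%, against 35.5%). Reg- amputated replicate 2 was highest for 59 (61.5%, against 25.1%), and Reg+ uncut replicate 3 for 76 (79.2%, against 42.9%). All 4 of these libraries were highest for 41 contigs, as they were for 1.06% of the 27010.

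The 4 leading libraries come from different groups, and whether any of their pools held tissue of the same worms is not known here. Contigs that share a gene would count more than once here, and which library leads was noticed in these data. Reg+ amputated replicate 2 (24370500 reads), Reg- amputated replicate 2 (26860786 reads) and Reg+ uncut replicate 3 (22038256 reads) were the shallowest of their groups and Reg- uncut replicate 3 (29795274 reads) the deepest of its group. The TMM scaling factors of these libraries were 0.907, 0.957, 1.06 and 1.02 in that order. The part of depth or scaling in the pattern was not tested.

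**Figure D4:**
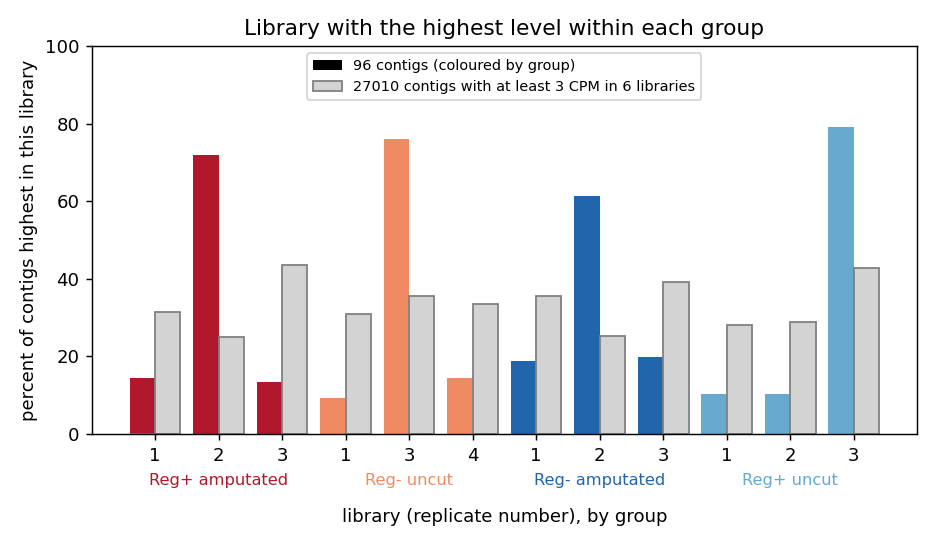
Percent of contigs whose highest CPM within a group fell in each library, for the 96 contigs (coloured bars) and for the 27010 contigs with at least 3 CPM in 6 libraries (grey bars). In each group a single library leads for 61.5% to 79.2% of the 96 contigs, against 24.9% to 42.9% of the 27010.

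Levels of some members moved together almost exactly. After each group mean was taken off log2(CPM + 0.5), 107 of the 4560 pairs of the 96 contigs (2.35%) had a Pearson r over 0.95 across the 12 libraries, against 0.812% of all pairs of the 27010 contigs. The points of such a correlation share their libraries and depth, and the values describe these pools. The 96 contigs also varied more within groups than the 27010 did, so the 2 shares are not like for like. Linked through these pairs, 44 contigs fell into sets of 31, 7, 2, 2 and 2, and 52 were in none. The closest pairs were contig20699 with contig18334 (1041 and 1246 nt, r = 0.9978), contig6639 with contig15691 (1372 and 1405 nt, r = 0.9977), contig18271 with contig2095 (458 and 1061 nt, r = 0.9934) and contig138882 with contig20843 (417 and 240 nt, r = 0.9915). In contig20699 the levels were 99.7, 188 and 95.99 CPM in Reg+ amputated libraries and 104, 201 and 104 CPM in Reg- uncut libraries, against 1.59, 9.61 and 5.05 CPM in Reg- amputated libraries and 5.37, 2.58 and 10.6 CPM in Reg+ uncut libraries. Contig18334 had 58.0, 105 and 50.3 CPM in Reg+ amputated libraries and 54.5, 102 and 54.5 CPM in Reg- uncut libraries, against 1.73, 8.86 and 5.21 CPM in Reg- amputated libraries and 4.71, 2.45 and 9.35 CPM in Reg+ uncut libraries. The order of libraries within every group was the same in both, apart from the nearly equal replicates 1 and 4 of Reg- uncut. Contig18271 peaked at 255 CPM in Reg+ amputated replicate 2 and 162 CPM in Reg- uncut replicate 3, and at 2.98 CPM in Reg- amputated replicate 2 and 8.08 CPM in Reg+ uncut replicate 3. Its partner contig2095 peaked in these libraries too, at 58.4, 49.2, 1.23 and 2.68 CPM. Whether such pairs are pieces of 1 transcript was not tested, and contig sequences were not used here.

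The set of 31 contigs included contig138882, contig20843, contig6639, contig18271, contig20699 and contig15691. Its median level was 63.7, 105 and 51.7 CPM in Reg+ amputated libraries and 48.8, 92.8 and 60.4 CPM in Reg- uncut libraries. In the low groups it was 0.498, 3.57 and 1.52 CPM in Reg- amputated libraries and 0.621, 0.805 and 4.22 CPM in Reg+ uncut libraries. On the log scale these medians spread wider in the low groups than in the high ones, so low counts weigh more in the correlations. Reg+ amputated replicate 2 and Reg+ uncut replicate 3 were the highest of their groups for all 31 contigs, and Reg- uncut replicate 3 and Reg- amputated replicate 2 for 28 each. The lead of these libraries was not limited to the set: over the other 65 contigs it was held by Reg+ amputated replicate 2 in 38, by Reg- uncut replicate 3 in 45, by Reg- amputated replicate 2 in 31 and by Reg+ uncut replicate 3 in 45.

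The set of 7 contigs, with contig10249, contig67556, contig138364 and contig6645 among them, was also highest in Reg+ amputated replicate 2 and Reg- uncut replicate 3. Its median level was 11.2, 34.8 and 12.6 CPM in Reg+ amputated libraries and 14.1, 41.1 and 11.2 CPM in Reg- uncut libraries. In the low groups its medians were 0.133, 0.186 and 0.0324 CPM in Reg- amputated libraries and 0.0731, 0.201 and 0.227 CPM in Reg+ uncut libraries, too few reads in most of them to order those libraries. Contig6833 with contig6732, and contig16874 with contig21748, formed 2 of the pairs. Both pairs were higher in Reg- uncut than in Reg+ amputated libraries and had their highest low value in Reg- amputated replicate 3, at a median of 5.33 and 9.31 CPM. The last pair was contig11211 with contig71567.

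The rule did not set the 2 high groups against each other, so Reg+ amputated tissue was compared with Reg- uncut tissue. These groups differ in region and in treatment. The rule did use these libraries and required both groups to be high. A contig far lower in 1 of them was therefore less likely to be taken, and likeness of the 2 groups is partly selected. No member was called in either direction by edgeR's quasi-likelihood test at a Benjamini-Hochberg adjusted p under 0.05, and none of the 62408 contigs tested was (0% called in each direction). At an unadjusted p under 0.05, edgeR had 12 of the 96 lower and 0 higher in Reg+ amputated tissue, against 6% of all tested contigs lower and 3.28% higher. DESeq2, run on the same libraries, called 5 of the 96 lower in Reg+ amputated tissue, where it called 0.707% of all tested contigs lower, and 0 of the 96 higher, where it called 0.162% higher. The tested contigs include many below the level of 3 CPM in 6 libraries that all 96 reach. Members that vary together can also count more than once. These counts and shares are therefore not like for like, and nothing is drawn from them. All 96 contigs were among those tested, and each passed the filter on low counts through the groups in which it is high. Each contig's spread was fitted over all 12 libraries, so the low libraries, not compared here, enter these p-values. The 96 contigs varied most in those libraries, and the part of this in the lack of calls was not tested. With only the 2 high groups fitted, edgeR called 0 of the 96 and 11 contigs in all. The median log2 fold change over the 96 was 0.02, and 0.000 over all tested contigs.

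The 5 contigs that DESeq2 called were contig109064, contig601, contig106530, contig138590 and contig19563. Contig109064 (297 nt) had 7.04, 5.70 and 5.64 CPM in Reg+ amputated libraries, against 14.7, 16.8 and 24.7 CPM in Reg- uncut libraries. The groups did not overlap, and its log2 fold change was -1.57 (SE 0.19) with an adjusted p of 0.0873 by edgeR and of 3.17e-06 by DESeq2. With edgeR it passed the threshold without Reg- amputated replicate 3 (adjusted p 0.0341) or without the filter on low counts (0.0358). Contig601 (408 nt) had 5.02, 4.47 and 10.8 CPM in Reg+ amputated libraries, against 26.4, 26.4 and 18.1 CPM in Reg- uncut libraries. Its log2 fold change was -1.78 (SE 0.39), with an adjusted p of 0.21 by edgeR and of 0.00472 by DESeq2.

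Contig106530 (333 nt) averaged 33.7 ± 5.31 CPM in Reg+ amputated libraries and 73.0 ± 12.1 CPM in Reg- uncut libraries (SD, n = 3 each), with an adjusted p of 0.198 by edgeR and 0.00187 by DESeq2. Contig138590 (1378 nt) averaged 27.4 ± 2.58 and 59.2 ± 9.30 CPM in those groups, with adjusted p of 0.266 by edgeR and 0.0202 by DESeq2. Contig19563 (697 nt) averaged 9.88 ± 1.04 and 18.8 ± 3.59 CPM, with adjusted p of 0.304 by edgeR and 0.0243 by DESeq2. In these 5 contigs, the difference between the high groups was 1.90 to 3.49 times in means.

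A further 10 contigs, among them contig6833, contig16874, contig21748, contig37921 and contig131872, were also at least 1.5 times higher in Reg- uncut than in Reg+ amputated tissue, without a call by either tool. These 15 of 96 contigs compare with 5.88% of the 27010 contigs with at least 3 CPM in 6 libraries. In all 15 the 3 Reg- uncut libraries lay above the 3 Reg+ amputated ones, as they did in 75.2% of the contigs of the 27010 that met the same fold. Contig37921 (1194 nt) had 82.4, 111 and 101 CPM in Reg+ amputated libraries, against 164, 232 and 223 CPM in Reg- uncut libraries. None of the 15 was in the set of 31 contigs. In the opposite direction only 2 contigs, contig109086 and contig130914, stood at least 1.5 times higher in Reg+ amputated tissue, against 2.9% of the 27010. The groups overlapped in both, where they were separate in 47.4% of the contigs of the 27010 that met this fold. For contig109086 the log2 fold change was 0.76 (SE 0.48, adjusted p 0.691 by edgeR). It became 0.29 when Reg+ amputated replicate 1 was left out and 0.48 when Reg- uncut replicate 1 was. Leaving out Reg+ amputated replicate 3 gave 1.04 and Reg- uncut replicate 3 gave 1.30, so the range was 0.29 to 1.30. Contig130914 (230 nt) had 15.96, 6.36 and 4 CPM in Reg+ amputated libraries, against 3.53, 5.001 and 8.43 CPM in Reg- uncut libraries. The log2 fold change of 0.68 (SE 0.58, adjusted p 0.789 by edgeR) became -0.05 without Reg+ amputated replicate 1.

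Counted over libraries without a test, 18 of the 96 contigs had Reg+ amputated libraries all below the Reg- uncut ones, a share near the 15.7% of the 27010 contigs with at least 3 CPM in 6 libraries. None had them all above, where 11.1% of the 27010 contigs did. The wider spread of the 96 contigs within groups bears on both counts and its part was not tested.

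**Figure D5:**
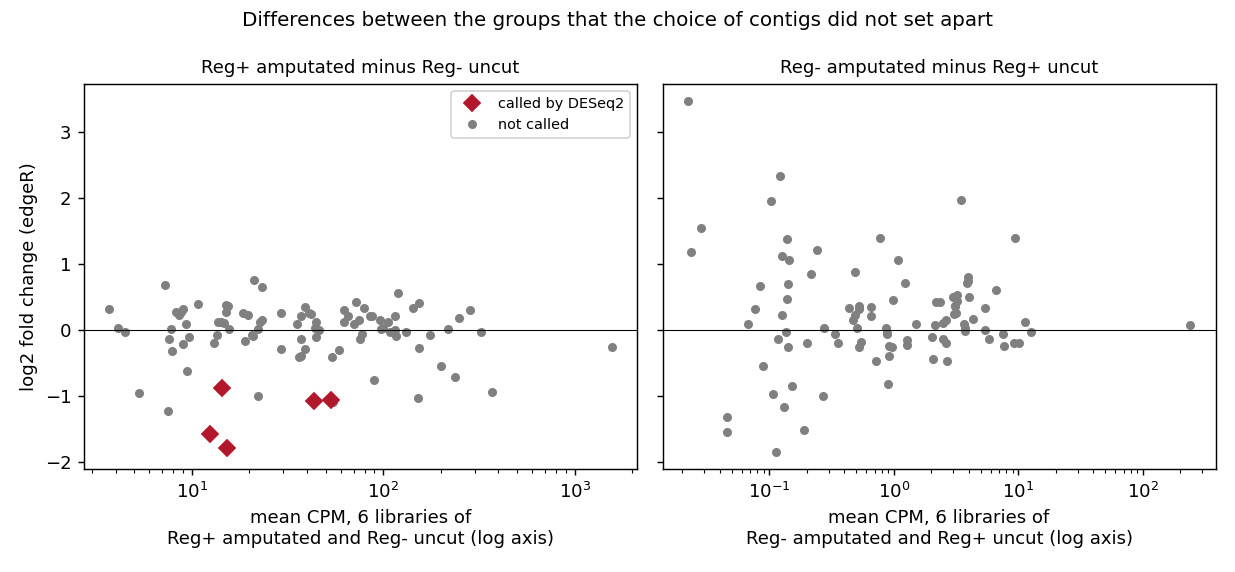
Log2 fold change from edgeR (vertical axis) of the 96 contigs against their mean CPM over the 6 libraries compared (log axis), for Reg+ amputated minus Reg- uncut on the left and Reg- amputated minus Reg+ uncut on the right. Red diamonds are the 5 contigs called by DESeq2, all lower in Reg+ amputated tissue, at log2 fold changes of -0.88 to -1.78; grey points were called by neither tool.

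The low groups were compared likewise, Reg- amputated with Reg+ uncut tissue. By edgeR 0 of the 96 contigs and 0 of all tested contigs passed the threshold (0% called in each direction), with 6 of the 96 higher and 0 lower at an unadjusted p under 0.05, against 1.45% and 2.36% of all tested contigs. By DESeq2 0 of the 96 passed, and 0.0192% of all tested contigs were called higher and 0.0128% lower in Reg- amputated tissue. The 96 contigs passed the filter on low counts through the groups in which they are high. In the low libraries 53 of them averaged under 1 CPM. The counts of the 96 and the shares of all tested contigs are therefore not like for like, and nothing is drawn from them. The median log2 fold change over the 96 was 0.10. The Reg- amputated libraries all lay above the Reg+ uncut ones in 1 contig and all below in 1, where 1.58% and 5.12% of the 27010 contigs did so.

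The 2 largest fitted differences in each direction of this comparison rest on very few reads. Contig27728 (330 nt) had 4, 0 and 15 reads in Reg- amputated and 1 in each Reg+ uncut library, a ratio of summed reads of 5.71 with an exact interval of 1.68 to 30.1. Most of these reads were in Reg- amputated replicate 3. Contig130914 had 4 reads in Reg- amputated replicate 1 and none in the other 5 libraries of these groups, and no fold is given. In the other direction contig131019 (265 nt) had 2, 2 and 0 reads in Reg- amputated and 2, 7 and 5 reads in Reg+ uncut libraries, a ratio of 0.258 with an interval of 0.0618 to 0.82. Contig138869 (363 nt) had 2 reads in Reg- amputated and 6 in Reg+ uncut libraries in all, a ratio of 0.301 with an interval of 0.0297 to 1.68. Next among the positive changes was contig90952 (232 nt), which was better counted. It had 330, 134 and 18 reads in Reg- amputated and 49, 29 and 35 reads in Reg+ uncut libraries. Its log2 fold change was 1.98 (SE 0.74), with an adjusted p of 0.996 by edgeR and 0.734 by DESeq2. The groups overlapped, and Reg- amputated replicate 1 held most of its reads. Contig131703 followed, with 8, 4 and 2 reads in Reg- amputated and 0, 0 and 3 reads in Reg+ uncut libraries. Contig27728, contig130914, contig131019 and contig138869 were named for their large fitted change, and the intervals cover counting error only. Contig90952 and contig131703 were singled out here after their values had been seen, and no interval is given for them. Over libraries no adjusted p of the 96 contigs was under 0.996 by edgeR or 0.734 by DESeq2.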

How the data were processed

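Each library's table lists, per the file headers, contig length, total and unique read counts and RPKM, as made by the authors. The counts are whole numbers and not normalized. The deposited RPKM equal reads per length and column total to within 0.0078. The contigs are those of a transcriptome assembled de novo, per the series' design text. Which aligner and counter were used, and how multiply matching reads were shared out, is not given in the sources used here. CPM used the column sum of total reads. For the tests, total counts of 62408 contigs kept by filterByExpr, which held 99.2% to 99.6% of each library's reads, were scaled by TMM and fitted with edgeR 4.0.16 in R 4.3.3, with a mean per group over all 12 libraries. DESeq2 1.42.0 was the other tool. The 96 contigs, the comparisons and the rules for naming contigs were chosen with earlier results of these data known. Named were the 8 most abundant, the 8 with the widest ratio, the 3 longest, the 4 most correlated pairs, those nearest the thresholds and the 2 with the largest fitted change in each direction of each comparison. SE of edgeR fold changes are |log2 fold change| over the root of F, and are unreliable where reads are few.

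Replicates of a group differed by a chi-square per degree of freedom of 9.68 to 73.1, so no library repeated another. Same-numbered Reg- amputated and Reg+ uncut libraries deviated together from their group means (r of 0.477, 0.143 and 0.771 for numbers 1, 2 and 3), so a fit paired by number was also run. This pairing comes from the data and not from the labels, and replicate 1 of Reg- amputated correlated more with replicate 2 of Reg+ uncut (0.606). For Reg+ amputated and Reg- uncut the numbers 1 and 3 gave -0.345 and -0.0654.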

Additional observations from a re-analysis of the deposited data

Results flagged for a closer look

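Summed over the 96 contigs, the log2 ratio of amputated over uncut tissue was 4.08 in the Reg+ region and -4.17 in the Reg- region, so that the same contrast ran in opposite directions. The choice of the contigs fixes these directions in every library, and the difference was therefore not tested.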

How the results depend on the processing

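The number of contigs meeting the rule was 198 with a fold of 2 in place of 4, and between 65 and 116 with a fold of 8, a floor of 1 or 10 CPM, TMM-scaled CPM or unique reads. It was 96 to 107 without any 1 library. For Reg+ amputated against Reg- uncut, members called were 5 with DESeq2 and 1 with no filter on low counts, where the main test had 0, and 0 to 1 without any 1 library. All contigs called numbered 542 with DESeq2, 10 with no filter, 11 when only the 2 groups were fitted, and 0 to 29 without any 1 library. The 29 came without Reg+ amputated replicate 3, and 10 came without Reg- amputated replicate 3. With the replicate number as a block, in which Reg- uncut replicate 4 is alone at its number and drops out, 4 contigs were called in all and 0 of the 96. For Reg- amputated against Reg+ uncut, DESeq2 called 20 contigs in all, 0 were called with the paired fit, and 0 to 0 without any 1 library. The paired fit changed no call of a member. The log2 fold change of contig130914 turned to -0.05 without Reg+ amputated replicate 1, and was -0.05 to 1.07 without any 1 library. Without contig147544, left out after its level had been seen, the summed level was 6400 CPM in Reg- uncut, 207 in Reg- amputated and 185.5 in Reg+ uncut tissue. Fitting only Reg- amputated and Reg+ uncut libraries gave no value for the 4 contigs named there, which failed the count filter. Of 272 values of named contigs under unique reads or TMM scaling, 5 moved by more than 1 SD. The cause of these changes was not tested. Depth limits what can be said of the low groups, where most of the 96 contigs are under 1 CPM.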
